A study of Mus musculus with 2 samples.

Results

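The *Ptf1a*+ cells described here were 256 of the 4444 cells kept from the GFP− library, a share of 5.76% (95% Clopper-Pearson interval 5.09 to 6.49), and of 8173 cells in both libraries. They were selected on 2 measured values, at least 2 unique molecular identifiers (UMIs, each a counted transcript molecule) of *Ptf1a* and at most 1 UMI summed over *Sncg*, *Nefl* and *Rbpms*, which are abundant in retinal ganglion cells. A cell was kept when mitochondrial transcripts made up less than 0.25 of its UMIs, which left out 1 of 4445 cells, and no upper limit was set on the genes per cell. The retinas came from mouse embryos at E14.5 heterozygous for the *LHX4::GFP* transgene, Tg(Lhx4::EGFP)KN199Gsat/Mmucd, a bacterial artificial chromosome in which the *Lhx4* locus drives EGFP. The labels give 3 tissue samples from 2 litters that were combined while they were dissociated, before the sort. GFP+ and GFP− cells therefore carried the same transgene and came from the same pool, and the GFP− fraction held the retinal cells outside the gate that collected early cones. Each gate gave 1 droplet library, so no comparison here has a replicate, no test between conditions was possible, and the intervals cover counting error only.

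PTF1A is a basic helix-loop-helix transcription factor that newly born retinal cells switch on as they take an amacrine or horizontal fate. Both classes are inhibitory interneurons, the horizontal cell in the outer and the amacrine cell in the inner synaptic layer. FOXN4 acts before PTF1A in progenitors, PRDM13 and the AP-2 factors TFAP2A and TFAP2B act after it, and ONECUT1 and LHX1 belong to the horizontal branch. PTF1A works in a complex with an E protein (TCF3, TCF4 or TCF12) and RBPJ or its relative RBPJL.

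In all, 46778924 UMIs were counted in the GFP− library, and its 4445 cells had median values of 9936 for UMIs and 2996 for detected genes. *Ptf1a*+ cells were shallower than the rest, at a median of 7029.5 UMIs (lowest 3006, highest 20732) against 10120.5 in the other 4188 cells, and 15 of them exceeded 3500 genes. To compare shares of cells at equal depth, each cell was also thinned to 5500 UMIs, which 235 *Ptf1a*+ cells and 3992 other cells reached. The libraries shared 20 cell barcodes (0.450% of the GFP− cells), and 1 of these belonged to a *Ptf1a*+ cell. Scrublet called 5 of the *Ptf1a*+ cells doublets (1.95%), and they were left in.

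*Ptf1a*, which chose the cells, had between 2 and 24 UMIs per cell with a median of 5. Just inside the threshold stood 40 cells with 2 UMIs, and just outside it 74 cells with 1 UMI and the same low ganglion sum. Another 100 cells had 2 or more *Ptf1a* UMIs but exceeded the ganglion limit, so 356 cells in all reached the *Ptf1a* minimum. The other markers of the class were present in most of the chosen cells. *Prdm13* had a UMI in 66.4% of them and *Tfap2b* in 60.2%, against 0.531% and 3.19% of 753 ganglion reference cells (5 or more UMIs of the 3 ganglion genes, no *Ptf1a*; median 14007 UMIs). Either marker was found in 199 cells (77.7%) and both in 125 (48.8%), while 57 cells (22.3%) had neither.

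**Figure D1:**
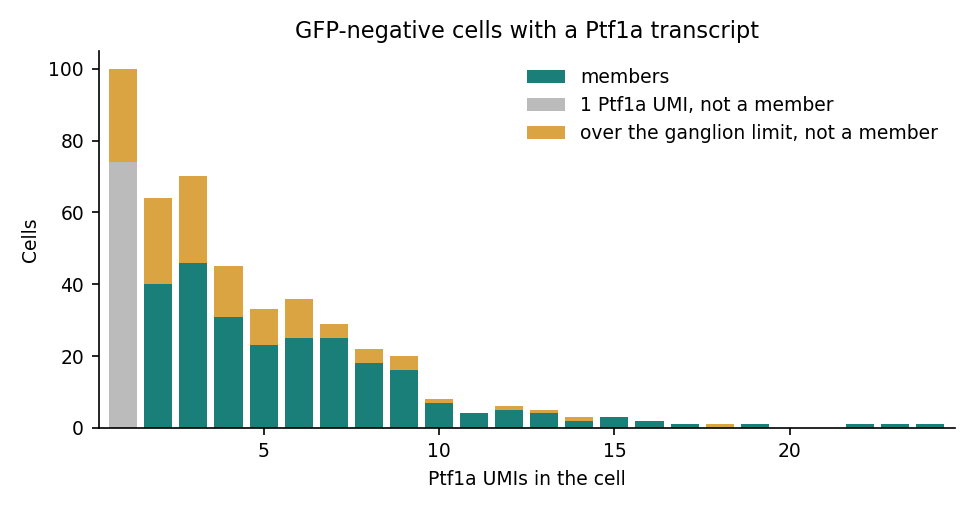
Number of GFP− cells (vertical axis) by the *Ptf1a* UMIs they held (horizontal axis, from 1). The 256 chosen cells are teal, the 74 cells with 1 UMI are grey, and cells over the ganglion limit are yellow. Counts mostly decline with the UMI number and show no gap at the threshold of 2.

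Levels were compared as CPM, the UMIs of a gene per 1000000 UMIs summed over a group of cells, with a gene counted as higher or lower at a ratio of at least 2 or at most 0.5. Of 8550 genes with at least 10 CPM on either side, 573 were higher in *Ptf1a*+ cells (6.7%) and 768 were lower (8.98%), with a median log2 ratio of 0.11. Of the 7111 genes with at least 10 CPM on both sides, 4.18% were higher and 3.68% lower, the shares against which the counts on both sides below are set. Among genes with at least 50 CPM on either side, the highest ratios belonged to genes with varied functions, besides *Ptf1a* itself (775 against 12.4 CPM). *Krt73*, a type II keratin with the highest ratio, stood at 211 CPM (95% Poisson interval 191 to 232) in *Ptf1a*+ cells and 2.92 CPM (2.44 to 3.47) in the other cells, a ratio of 72.0 (59.2 to 88.6). *Chodl*, which encodes the membrane lectin chondrolectin, stood at 248 against 4.59 CPM (ratio 53.9, 45.8 to 63.9). *P2rx1*, an ATP-gated cation channel, reached 141 against 2.88 CPM (ratio 48.9, 39.6 to 60.9). *Vtn*, the adhesion protein vitronectin, reached 158 against 5.75 CPM, and *Cxcl14*, a chemokine, 145 against 8.77 CPM. *Slc1a6*, the glutamate transporter EAAT4, was the lowest of the 15 highest at this minimum, at 152 against 9.64 CPM (ratio 15.8, 13.6 to 18.4).

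These genes were not spread evenly over the cells. *Chodl* was detected in 54.7% of *Ptf1a*+ cells, *P2rx1* in 41.8% and *Krt73* in 34.8%, against 0.266%, 0.266% and 0% of ganglion reference cells. A few cells did not carry the sums, since the 5 cells with the most UMIs held 14.7% of the *Chodl*, 13.5% of the *P2rx1* and 18.3% of the *Krt73* UMIs. *Cldn5*, a tight junction claudin best known from endothelium, stood at 263 CPM (241 to 287) against 7.07 CPM and was detected in 128 of the 256 cells. The endothelial gene *Pecam1* had 0.515 CPM in the same cells. *Kdr*, an endothelial receptor, had 11.8 against 32.3 CPM and a UMI in 7.42% of *Ptf1a*+ cells and 25.6% of the other cells. The endothelial and blood list of 9 genes summed to 278 CPM in *Ptf1a*+ cells, mostly *Cldn5*, and the 4 genes at 0 there were *Cdh5*, which had no UMI in the other cells either, and 3 hemoglobin genes. The part of endothelial RNA in the *Cldn5* level was not tested.

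**Figure D2:**
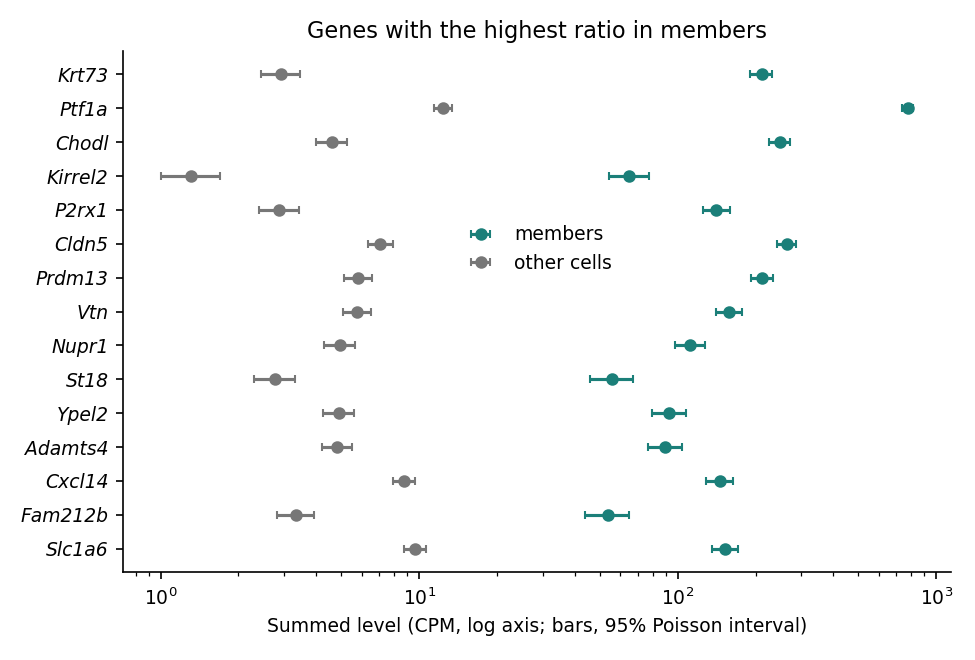
Summed level (CPM, log axis) of the 15 genes with the highest ratio among those with at least 50 CPM on either side, in *Ptf1a*+ cells (teal, "members") and in the other GFP− cells (grey); bars are 95% Poisson intervals. Every gene sits above 50 CPM in *Ptf1a*+ cells and below 13 CPM in the others. The genes were picked for their ratios, and *Ptf1a* chose the cells, so this separation follows from the choice and is a description.

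Among 13 amacrine and horizontal specification factors other than *Ptf1a*, 7 were higher, 2 were lower and 4 lay between, and 3 of the higher genes passed 10 CPM in *Ptf1a*+ cells only and 1 of the lower genes, *Foxn4*, in the other cells only. *Prdm13* stood at 212 CPM (192 to 234) against 5.82 (ratio 36.4, 31.1 to 42.7). The AP-2 genes had ratios of 11.9 for *Tfap2b* (435 against 36.6 CPM), 7.69 for *Tfap2a* (42.7 against 5.58 CPM) and 17.4 for *Tfap2c* (29.8 against 1.72 CPM). *Pax6*, a homeobox gene that amacrine cells keep, and *Rorb*, a nuclear receptor needed for horizontal and amacrine differentiation, were 2.58 and 2.20 times higher at 1777 and 1376 CPM. The bHLH gene *Neurod4* reached 56.1 against 15.1 CPM. *Foxn4* went the other way, at 7.72 CPM (4.32 to 12.7) against 46.9 (44.9 to 48.9), a ratio of 0.17. It was detected in 5.08% of *Ptf1a*+ cells, below the 6.24% of the deeper ganglion reference cells. At equal depth the *Foxn4* shares were 4.68% in *Ptf1a*+ cells and 2.67% in ganglion reference cells. With a minimum of 1 *Ptf1a* UMI the share was 9.39%, and among cells with at most 3500 genes it was 2.90%. *Six3*, an eye field homeobox gene, was level at 411 and 402 CPM.

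Partners of PTF1A in its complex varied less. Of the 4 measured above 10 CPM, only *Tcf4* exceeded the 2-fold limit, at 209 against 102 CPM (ratio 2.06, 1.85 to 2.27). This call was lost under 5 of the 16 alternative settings, with TMM scaling (log2 ratio 0.92) the lowest. *Rbpj* stood at 79.8 against 69.2 CPM, *Tcf12* at 91.6 against 66.1 and *Tcf3* at 135 against 153. *Rbpjl*, the partner used in the pancreas, had no UMI in *Ptf1a*+ cells (3 counts would be 1.54 CPM).

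A list of 13 genes known to lie downstream of PTF1A in spinal cord, cerebellum or pancreas held 4 genes above 10 CPM. Each reached that level in *Ptf1a*+ cells only, so the minimum fixed their direction and their values are given as a description. Besides *Prdm13*, these were *Kirrel2* at 64.8 against 1.32 CPM (ratio 49.0, 35.9 to 68.3), *Nphs1* at 21.1 against 0.825 CPM (25.5, 16.0 to 41.0) and the LIM homeobox gene *Lhx5* at 24.2 against 1.25 CPM (19.4, 12.9 to 29.1). *Kirrel2* and *Nphs1* encode adhesion proteins of the immunoglobulin superfamily. They are neighbours on chromosome 7 and are read in opposite directions, *Kirrel2* on the minus strand at chr7:30447534-30457690 and *Nphs1* on the plus strand at chr7:30458315-30487223 (GRCm38, GENCODE M21), with 625 bases between their annotated starts. *Nphs1* was detected in 11.7% of *Ptf1a*+ cells and *Kirrel2* in 28.1%, and *Kirrel2* was found in 53.3% of the cells with *Nphs1* and 24.8% of those without (45.8% and 19.9% at equal depth).

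The PTF1 complex is known to bind a bipartite site made of an E box and a TC box, so the 250 bases before the RefSeq start were searched for CANNTG and for TGGGAA or its reverse complement TTCCCA, which covers both strands. The upstream sequences of *Kirrel2* and *Prdm13* are shown because both genes are established PTF1A targets elsewhere and were among the 7 highest ratios here. They run 5′ to 3′ on the strand of the gene (RefSeq, GRCm38.p6; chr7:30457516-30457765 and chr4:21685964-21686213, both minus strand), with matches in capitals.
Kirrel2: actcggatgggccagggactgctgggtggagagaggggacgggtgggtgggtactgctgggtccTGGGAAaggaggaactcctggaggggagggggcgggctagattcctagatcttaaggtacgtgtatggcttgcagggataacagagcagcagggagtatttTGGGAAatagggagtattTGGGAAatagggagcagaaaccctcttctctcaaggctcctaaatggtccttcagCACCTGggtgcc
Prdm13: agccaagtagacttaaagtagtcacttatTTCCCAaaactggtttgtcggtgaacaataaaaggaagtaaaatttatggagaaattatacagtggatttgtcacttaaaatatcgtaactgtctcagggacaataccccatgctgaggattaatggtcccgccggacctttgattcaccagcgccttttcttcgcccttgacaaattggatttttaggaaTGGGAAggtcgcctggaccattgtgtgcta
*Kirrel2* had 1 E box and 3 TC boxes in the window, and *Prdm13* had 2 TC boxes and no E box. The window of *Nphs1*, on the same downstream list, was chr7:30459808-30460057 and held neither motif. It lay before the RefSeq start but inside the GENCODE gene given above. The *Kirrel2* window also overlapped its GENCODE gene, so neither window is the sequence before the GENCODE start. Of the 14 highest-ratio genes other than *Ptf1a*, 11 were matched to a promoter, and 4 of the 11 held both motifs (36.4%), against 14.8% of 32851 promoters of this length. An E box, with or without a TC box, was found in 63.6% of the 11 and 66.2% of all promoters, and a TC box, with or without an E box, in 54.5% and 21.6%. The search set no spacing between the motifs, so a window with both need not hold a bipartite site. The 11 genes were picked for their ratios in these data, and the difference from all promoters was not tested. The matches describe letters in this window, and binding was not measured.

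Genes of the horizontal branch were partly present. Of 12 horizontal cell genes, 4 had at least 10 CPM on both sides and 3 of these were higher. *Onecut2* stood at 585 CPM (551 to 620) against 93.4 and was detected in 78.5% of *Ptf1a*+ cells and 78.0% of the deeper ganglion reference cells. At equal depth these shares were 75.7% and 52.8%. *Onecut1* reached 42.2 against 18.7 CPM and was found in 23.0% of cells, and *Prox1* reached 33.4 against 12.6 CPM. *Lhx1*, which marks cells committed to the horizontal fate, had 9.78 against 2.14 CPM (ratio 4.66, 2.63 to 7.52) and a UMI in 5.08% of *Ptf1a*+ cells and 1.19% of the others. The rule left out *Ptf1a* cells over the ganglion limit, in which *Lhx1* was higher, as described below. *Onecut3* was no higher than in the other cells (3.09 and 3.64 CPM), and *Calb1*, *Esrrb* and *Gjd2* had 1.54, 0 and 0 CPM.

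Genes of inhibitory transmission were detected in part. Of 10 genes of GABA and glycine transmission, 4 had at least 10 CPM on both sides and all 4 were higher. *Slc32a1*, the vesicular transporter for both transmitters, passed only in *Ptf1a*+ cells and stood at 34.5 CPM (26.7 to 43.8) against 2.25 (ratio 15.3, 11.1 to 21.0). *Gad2*, which makes GABA, reached 58.7 against 19.7 CPM and *Abat*, which degrades it, 83.4 against 23.2. The homeobox genes *Dlx1* and *Dlx2*, grouped here because they promote *Gad* transcription, had ratios of 4.41 and 2.58. *Gad1* and the glycine transporter *Slc6a9* had 0 and 1.03 CPM. *Calb2*, the calcium buffer calretinin of amacrine and ganglion cells, stood at 408 CPM (380 to 438) against 51.9, and it was the only one past 2-fold of the 2 genes with at least 10 CPM on both sides in a list of 12 further amacrine transmitter and neuropeptide markers. *Sst* and *Tac1* of that list passed in the other cells only, with 1.54 against 38.3 CPM and 0 against 12.7 CPM. Of 21 amacrine subtype factors, 9 had at least 10 CPM on both sides, with only *Barhl2* higher (75.6 against 29.4 CPM) and 3 lower (*Ebf1*, *Isl1* and *Sox2*).

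**Figure D3:**
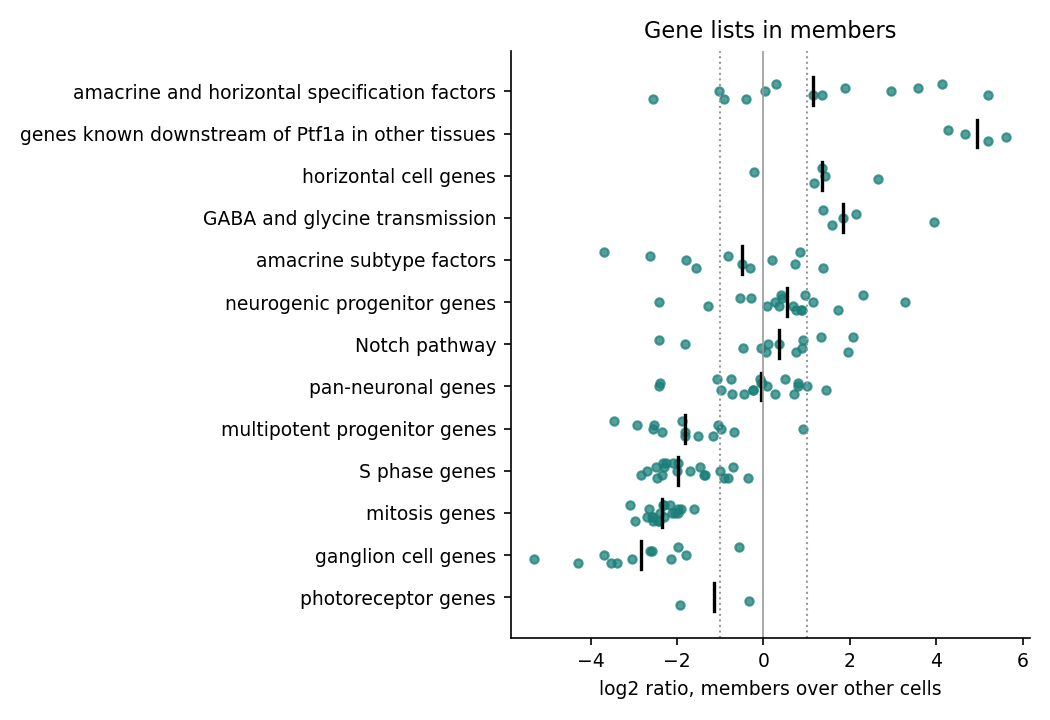
log2 ratio of *Ptf1a*+ cells ("members") over other GFP− cells (horizontal axis) for the genes of 13 lists with at least 10 CPM on either side; each point is a gene, the black bar is the list's median and dotted lines mark 2-fold. Points of the mitosis list all lie left of the lower dotted line. Genes of the downstream list are drawn only because of their level in *Ptf1a*+ cells, so their side of the plot is fixed. The same holds for points of other lists that passed the minimum on a single side. These include 6 mitosis and 6 S phase genes that passed in the other cells only, and *Tfap2a*, *Tfap2c* and *Slc32a1*, which passed in *Ptf1a*+ cells only.

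Cell cycle genes were low. All 20 mitosis genes and 16 of 20 S phase genes were lower than in the other cells, with median log2 ratios of −2.35 and −1.99. Among those with at least 10 CPM on both sides, 14 of 14 and 10 of 14 were lower. *Top2a* stood at 40.1 against 238 CPM and *Mcm6* at 19.0 against 96.6. After thinning, 6 of 235 *Ptf1a*+ cells held 10 or more mitosis UMIs (2.55%, 0.943 to 5.47), against 33.1% of the other cells and 9 of 748 ganglion reference cells. The share was 8.52% with a minimum of 1 *Ptf1a* UMI and 0.455% among cells with at most 3500 genes. With that minimum of 1 UMI, *Mki67*, *Ccnb1*, *Ccna2*, *Cdk1*, *Ube2c*, *Cenpf*, *Cenpe*, *Tpx2*, *Aurka*, *Plk1*, *Cdc20*, *Mcm4* and *Uhrf1* were lower by less than 2-fold. The log2 ratio of *Ube2c* was then −0.69 and that of *Plk1* −0.96. *Ccnd1*, the cyclin of retinal progenitors, was at 180 against 1369 CPM. *Cdkn1c*, the inhibitor p57 that takes retinal cells out of the cycle, went the other way, at 1439 CPM (1386 to 1493) against 188 (ratio 7.67, 7.35 to 8.01), and it was detected in 70.3% of *Ptf1a*+ cells. *Btg1*, an antiproliferative gene, was also higher (ratio 2.54). Of 10 cell cycle exit genes with at least 10 CPM on both sides, these were the 2 higher, and 2 were lower.

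Of 12 multipotent progenitor genes with at least 10 CPM on both sides, 9 were lower, including *Sfrp2* (82.9 against 915 CPM) and *Hes1* (93.7 against 333 CPM). Of 16 neurogenic genes with at least 10 CPM on both sides, 3 were higher and 1 lower. Among the higher genes, *Gadd45a* and *Rgs16* had ratios of 3.30 and 4.92. *Neurog2*, a proneural bHLH gene, was lower at 80.8 against 199 CPM. *Atoh7*, the bHLH factor that gives progenitors competence for ganglion fate, stood at 181 CPM (163 to 201) against 100 and was detected in 35.2% of cells. Of 11 Notch pathway genes with at least 10 CPM on both sides, 2 were higher (*Lfng* and *Hey1*) and 1 lower.

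Ganglion genes other than the 3 of the rule were low, with 6 of the 7 that had at least 10 CPM on both sides lower. The rule limited ganglion transcripts, and cells over that limit stayed among the other cells, so this direction follows from the choice and is a description. With no ganglion limit, only *Nefm* of these lower genes fell under 2-fold (log2 ratio −0.48). *Isl1* stood at 19.6 against 255 CPM and *Pou4f2*, a determinant of ganglion fate, at 12.4 against 55.8 CPM with a UMI in 3.52% of cells. Of 2 photoreceptor genes above 10 CPM, *Otx2* was lower (19.6 against 76.0 CPM) and *Crx* lay between. General neuronal genes were mixed, as 2 of 20 were higher (*Elavl3* and *Syt1*) and 3 lower. Neither of the 2 passed 2-fold against other cells without mitotic transcripts (log2 ratios of 0.89 and 0.69). *Syt1* also fell under 2-fold with TMM scaling (0.89) and with a minimum of 1 *Ptf1a* UMI (0.80). *Tubb3*, neuronal beta-tubulin, was nevertheless detected in all 256 cells, at 3541 against 2161 CPM. Among guidance and adhesion genes, 10 had at least 10 CPM on both sides, of which 2 were higher and 2 lower. *Nrxn3*, a presynaptic neurexin, was one of the higher (207 against 16.6 CPM, ratio 12.5, 11.0 to 14.1). *Plxna2*, a semaphorin receptor (37.6 against 3.46 CPM), and *Dcc*, a netrin receptor (55.6 against 9.81 CPM), passed in *Ptf1a*+ cells only, and 6 genes of the list passed in the other cells only. Markers of other tissues were near 0. The 7 microglia genes summed to 1.03 CPM with 5 at 0, against 14.8 CPM in the other cells. The 7 pigment epithelium genes summed to 3.60 CPM with 4 at 0, against 1.58 CPM in the other cells. The 6 mesenchyme genes summed to 5.15 CPM with 3 at 0, against 6.11 CPM in the other cells. The lens list summed to 37.6 CPM, of which *Prox1* gave 33.4, and *Cryaa* had no UMI. The hemoglobin gene *Hbb-bs* stood at 1.03 against 155 CPM. *Hbb-bt* and *Hba-a1* were also low, but they were detected in 0.239% and 1.22% of the other cells, and their log2 ratios turned to 0.15 and 0.36 among cells with at most 3500 genes.

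Other genes varied with *Tfap2b* among the *Ptf1a*+ cells. *Tfap2b* had no UMI in 102 cells, 1 to 4 in 78 and 5 or more in 76, and the 3 sets had like depths (medians of 7259.5, 7042.5 and 6890 UMIs). *Ptf1a* changed little across them, at 814, 752 and 745 CPM. *Prdm13* stood at 133, 281 and 248 CPM. Of 3452 genes with at least 50 CPM, 273 were higher (7.91%) and 211 lower (6.11%) in cells with 5 or more *Tfap2b* UMIs than in cells with none.

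The 9 Notch pathway genes that reached 50 CPM did so only in cells without *Tfap2b*, so their direction was fixed by the minimum. Of 10 Notch genes with a UMI but below that minimum in both sets, 4 were lower and none was higher. The shares over all genes below the minimum were not counted, so this count is a description. Among these 10, *Heyl* had a ratio of 0.068 (0.0011 to 0.28), and *Rfng* and *Numbl* had 1.23 and 1.47. *Hes5*, a transcriptional target of Notch, stood at 1127 CPM (1054 to 1204) with no *Tfap2b*, 83.2 with 1 to 4 and 23.2 with 5 or more, a ratio of 0.0213 (0.0109 to 0.0353) between the ends. *Lfng*, a glycosyltransferase that modifies Notch, went from 246 to 16.6 and 7.13 CPM, and *Dll1*, a Notch ligand, from 74.3 to 14.97 and 3.56 CPM. *Atoh7* stood at 393, 59.9 and 16.0 CPM. It was detected in 70.6% (60.7 to 79.2) of cells without *Tfap2b* and 11.7% (7.08 to 17.8) of cells with it, and in 58.3% and 6.06% at equal depth. *Dlx1* and *Dlx2* were also lower in the high set, with ratios of 0.42 and 0.14, and so was *Chodl*, with a ratio of 0.39 (0.30 to 0.51).

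Several named genes had the opposite order. *Onecut2* stood at 220, 694 and 974 CPM over the 3 sets and *Calb2* at 76.8, 511 and 759 CPM, a ratio of 9.81 (7.52 to 13.2) between the ends. *Slc32a1* went from 6.40 to 44.9 and 62.3 CPM and *Gad2* from 17.9 to 71.5 and 102 CPM. *Slc1a6* had the ratio 27.5 (14.9 to 64.2), *Plxna2* 13.8 (5.57 to 58.6) and *Nrxn3* 8.03 (5.71 to 11.8). The neurofilament genes *Ina* and *Nefm* had ratios of 11.1 and 8.01. *Tfap2a* had no UMI in the 102 cells without *Tfap2b*, where 3 counts would be 3.84 CPM and a UMI in 2.94% of cells, a limit on cells with a UMI and not on cells that express the gene. It reached 41.6 and 103 CPM in the others. Of 13 general neuronal genes with at least 50 CPM in both sets, 7 were higher in the high set and none was lower, where 2.95% and 2.31% of the 2506 genes that passed in both sets were higher and lower. Of the GABA and glycine transmission genes, only *Dlx1* passed 50 CPM in both sets. *Slc32a1*, *Gad2*, *Slc1a6*, *Plxna2*, *Nrxn3*, *Nefm* and *Tfap2a* passed in the high set only, and *Dlx2* and *Atoh7* in the set without *Tfap2b* only, so their values are a description. With sets made from thinned UMIs (103, 80 and 52 cells), *Hes5* stood at 947, 61.3 and 13.6 CPM and *Onecut2* at 229, 715 and 1086 CPM. The sets were divided on a measured value and are described without a test.

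**Figure D4:**
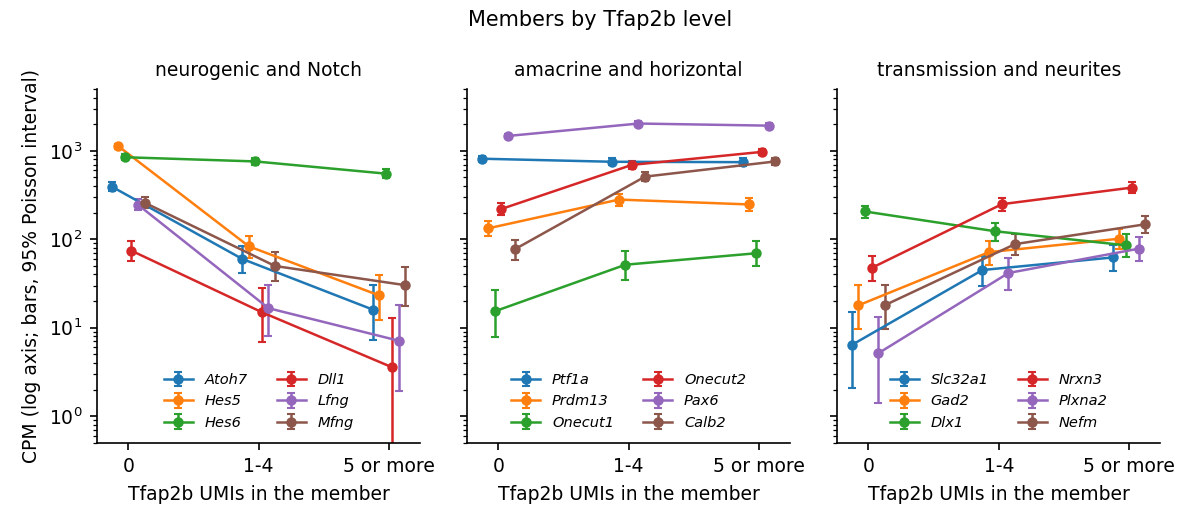
Level (CPM, log axis, 95% Poisson intervals) of 18 genes in *Ptf1a*+ cells ("members") with 0, 1 to 4 and 5 or more *Tfap2b* UMIs. *Atoh7*, *Hes5*, *Dll1*, *Lfng* and *Mfng* decline from left to right, *Ptf1a* stays between 745 and 814 CPM, and the transmission and neurite genes other than *Dlx1* climb.

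The cells were also divided by *Ptf1a* level, which the rule had used, and the values are a description. Between the 117 cells with 2 to 4 UMIs and the 32 cells with 10 or more, *Tfap2b* had a ratio of 0.82 (0.64 to 1.02) and *Prdm13* 0.75 (0.53 to 1.03), intervals that include 1. *Hes5* and *Chodl* were higher in the cells with most *Ptf1a*, with ratios of 3.07 (2.61 to 3.61) and 2.25 (1.76 to 2.87). *Calb2* was lower, with a ratio of 0.37 (0.26 to 0.50).

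The cells on either side of the thresholds differed from the chosen cells. Among the 74 cells with 1 *Ptf1a* UMI, *Prdm13* was detected in 29.7% and *Tfap2b* in 39.2%, *Foxn4* stood at 54.0 CPM, and 28.6% of those that could be thinned held 10 or more mitosis UMIs. The 100 *Ptf1a* cells over the ganglion limit exceeded it mainly through *Nefl*, which 94.0% of them held, and *Pou4f2* had a UMI in 6 of the 100. *Tfap2b* stood at 1055 CPM there, 2.42 (2.20 to 2.67) times the level in *Ptf1a*+ cells, and *Tfap2a*, *Lhx1* and *Nefm* were 3.67, 4.34 and 6.98 times higher. *Chodl*, *Krt73* and *Kirrel2* were lower there, at 0.25, 0.24 and 0.22 times. *Hes5* and *Atoh7* were lower as well, at 0.33 and 0.17 times.

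The *Ptf1a*+ cells were also set against cells with *Tfap2b* or *Atoh7* but no *Ptf1a*. Cells with 2 or more *Tfap2b* UMIs and no *Ptf1a* UMI numbered 43 (median 6702 UMIs). The ganglion limit was not applied to them, and *Nefl* had a UMI in 67.4% of them and 19.1% of *Ptf1a*+ cells (469 and 25.2 CPM). Against the *Tfap2b* cells, 601 of 8424 genes were higher in *Ptf1a*+ cells (7.13%) and 998 lower (11.8%). Of the 4 horizontal genes with at least 10 CPM on both sides, 3 were lower in *Ptf1a*+ cells and none was higher, and another 4 passed only in the *Tfap2b* cells. Of all 6838 genes that passed on both sides, 6.54% were lower and 2.65% higher. *Prox1*, which passed on both sides, was at 33.4 against 112 CPM. *Lhx1* was at 9.78 against 112 CPM (ratio 0.088, 0.047 to 0.16) and *Onecut3* at 3.09 against 86.7 CPM. Both passed only in the *Tfap2b* cells, so the minimum fixed their direction and their values are a description. *Dcx*, a microtubule protein of migrating neurons, was at 27.8 against 215 CPM. The part of the unequal ganglion limit in this difference was not tested. *Prdm13* was 2.70 (1.82 to 4.34) times higher in *Ptf1a*+ cells, and *Chodl*, *Cldn5* and *Krt73* were 3.16, 3.65 and 5.26 times higher. Among genes with at least 50 CPM on either side, the imprinted RNA *H19* had the highest ratio after *Ptf1a*. *H19* stood at 248 against 16.1 CPM, but 5 *Ptf1a*+ cells held 37.8% of its UMIs.

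Cells with 2 or more *Atoh7* UMIs and no *Ptf1a*, *Olig2* or *Pou4f2* UMI numbered 292 (median 7952.5 UMIs). Here 886 of 8420 genes were higher in *Ptf1a*+ cells (10.5%) and 682 lower (8.1%). All 14 mitosis genes with at least 10 CPM on both sides were lower. After thinning, 123 of 273 *Atoh7* cells held 10 or more mitosis UMIs (45.1%). *Neurog2* stood at 80.8 against 668 CPM and *Otx2* at 19.6 against 288 CPM. *Dlx1* was level, at 146 and 135 CPM (ratio 1.08, 0.92 to 1.26). Of 18 general neuronal genes with at least 10 CPM on both sides, 13 were higher in *Ptf1a*+ cells and none was lower, against 5.72% higher and 3.91% lower of all 6850 genes that passed on both sides. *Cdkn1c* was 10.8 (9.64 to 12.1) times higher. *Tfap2b* and *Prdm13* were detected in 3.08% and 1.37% of the *Atoh7* cells.

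**Figure D5:**
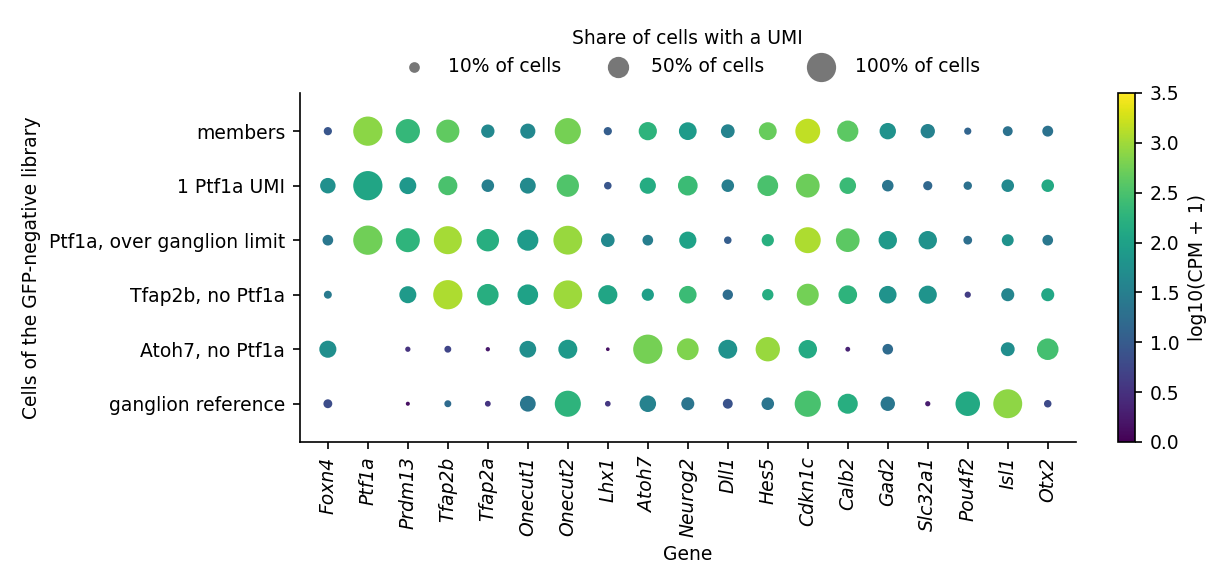
Share of cells with a UMI (dot size) and level (colour, log10 of CPM plus 1) of 19 genes (horizontal axis) in *Ptf1a*+ cells ("members", top row) and 5 other sets of GFP− cells. *Ptf1a*+ cells share *Prdm13* and *Tfap2b* with the first 3 rows below them and *Atoh7* and *Hes5* with the *Atoh7* cells, at smaller dots. *Lhx1* is largest in *Tfap2b* cells without *Ptf1a*.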

How the data were processed

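GFP+ and GFP− cells were sorted from pooled *LHX4::GFP* retinas at E14.5 and 1 droplet library was made of each. The authors made the deposited UMI counts per gene and cell with Cell Ranger 2.1.1 on the mm10 (GRCm38) reference, and the deposited barcode and gene files name the cells and genes. The members and gene lists were chosen with earlier results of these data known. UMIs were summed over cells (Python 3.11.15, numpy 2.4.6, scipy 1.17.1, scanpy 1.11.5) and ratios taken after adding 0.5 UMI to both sums, with exact conditional binomial intervals. Shares have Clopper-Pearson intervals, and a count of 0 was read against 3 counts. Doublets were called with Scrublet at an expected rate of 0.03 and kept. Scripts were tested on simulated data. Named genes are the members of 24 lists, the 15 highest and 15 lowest ratios at 50 CPM or more, and the 8 highest and 8 lowest against *Tfap2b* cells. As first defined (also without ganglion or horizontal transcripts), those *Tfap2b* cells numbered 1, so the set of 43 was adopted after seeing the data. The alternatives changed the rule, depth, filters, scaling (edgeR 4.0.16 TMM in R 4.3.3) and comparison cells. Counts of list genes that reached the minimum level on both sides were added after seeing the data. Some genes are not reported here.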

Additional observations from a re-analysis of the deposited data

Results flagged for a closer look

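In the GFP+ library, which the comparisons above do not use, 11 of 3728 cells met the rule for *Ptf1a*+ cells (0.295%, 0.147 to 0.527), and they were flagged because a signal appears in data outside the main measurement. *Ptf1a* had 9 detections among the other 3717 GFP+ cells (0.242%). Of the 11 cells, 10 held *Tfap2b* and 10 held *Prdm13*, against 0.188% and 0.135% of the other GFP+ cells. The cone gene *Thrb* was detected in none of the 11 and in 86.3% of the others. For 11 cells, 3 counts would be 27.3%, a limit on cells with a UMI and not on cells that express the gene. *Otx2* was detected in 7 of the 11 and *Gngt2* in 3, against 98.3% and 95.9% of the others. Their median depth was 6831 UMIs against 3903 in the other GFP+ cells.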

How the results depend on the processing

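The share of *Ptf1a*+ cells among kept cells followed the rule, at 7.43% with a minimum of 1 *Ptf1a* UMI, 4.86% with 3, 3.98% with no ganglion transcript allowed, 8.01% with no ganglion limit and 7.11% among cells with at most 3500 genes. With a minimum of 1 UMI, *Foxn4* was found in 9.39% and mitotic transcripts in 8.52%. *Tfap2b* was found in 68.8% with no ganglion limit, and mitotic transcripts in 0.455% at up to 3500 genes. Counts of genes at least 2-fold higher and lower were 220 and 198 at 50 CPM, 1577 and 2173 at 10 UMIs in all, and 346 and 444 when the whole interval had to pass 2-fold. TMM factors moved the median log2 ratio by −0.13, to −0.02, with 465 higher and 907 lower. A pseudocount of 5, equal for sums of unequal size, gave 710 and 586. The other alternatives for these counts stayed within 1.5 times. For 148 named genes under 16 settings, 1895 of 2368 log2 ratios stayed within the counting interval, 455 moved beyond it and 18 changed sign. In 110 cases a ratio fell under 2-fold, for 29 genes with a minimum of 1 *Ptf1a* UMI, 14 at up to 3500 genes, 31 against cells without mitotic transcripts and at most 7 under any other setting. Genes named above that fell under 2-fold somewhere were *Barhl2*, *Dlx2*, *Ebf1*, *Elavl3*, *Hbb-bs*, *Kdr*, *Nefm*, *Neurog2*, *Otx2*, *Rorb*, *Syt1*, *Tcf4* and *Top2a*. The cell cycle genes listed above for a minimum of 1 *Ptf1a* UMI did so as well. Against other cells without mitotic transcripts, the sign turned for 14 mitosis genes, since that setting removes these transcripts from the comparison cells, with log2 ratios of 1.32 for *Ccnb1*, 0.018 for *Ccna2*, 1.40 for *Ube2c*, 0.46 for *Cenpf*, 1.29 for *Cenpe*, 1.34 for *Hmmr*, 0.048 for *Nusap1*, 0.35 for *Tpx2*, 0.20 for *Bub1*, 1.23 for *Aurka*, 1.45 for *Plk1*, 0.99 for *Cdc20*, 0.33 for *Kif11* and 0.85 for *Kif23*. There *Hbb-bt* and *Hba-a1* turned to 0.70 and 0.17, and among cells with at most 3500 genes to 0.15 and 0.36. No paired analysis was possible because each gate has 1 library. Depth limits genes under 10 CPM and no setting replaces the missing replicates.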

Other observations

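Stress genes of *Ptf1a*+ cells were level or low. Of 4 ATF4 stress genes with at least 10 CPM on both sides, 2 were lower than in the other GFP− cells and none was higher, and *Atf4* itself was level, with a ratio of 0.96. The 2 lower genes, *Atf5* and *Psat1*, fell under 2-fold with a minimum of 1 *Ptf1a* UMI (log2 ratios of −0.80 and −0.59). *Psat1* also did so with a minimum of 3, CPM averaged over cells, a pseudocount of 5, and against other cells without mitotic transcripts (−0.62). Of 6 immediate early and heat shock genes, *Fos* was lower (ratio 0.49) and 5 lay between. The *Fos* call was lost with a minimum of 1 *Ptf1a* UMI (log2 ratio −0.45) and against other cells without mitotic transcripts (−0.62). It was also lost with no ganglion limit (−0.84) and with a pseudocount of 5 (−0.90). Summed over each list, the ATF4 genes stood at 238 against 431 CPM and the immediate early and heat shock genes at 272 against 360 CPM.

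Several leading genes varied with *Tfap2b* in opposite ways. *Vtn* and *Cldn5* had ratios of 4.71 (3.29 to 7.02) and 3.82 (2.93 to 5.07) between cells with 5 or more and no *Tfap2b* UMIs, and *Kirrel2* and *Krt73* had ratios of 0.48 (0.28 to 0.76) and 0.53 (0.41 to 0.69). *Cldn5* and *Krt73* passed 50 CPM in both sets. *Vtn* passed in the high set only and *Kirrel2* in the set without *Tfap2b* only, so their values are a description.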
